A study of Homo sapiens with 160 samples.

Results

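Solute carriers are membrane proteins that move small molecules, and the genes described here are the 172 of them that were expressed in BEAS-2B cells. They were chosen by 2 criteria: a symbol made of SLC, a family number, the letter A and a member number, which 338 of the 29273 measured genes carry, and a mean normalised signal of at least 2 over 150 libraries. BEAS-2B is an immortalised line of human bronchial epithelial origin. All cells were grown to confluence and held without serum overnight, so every group shared that condition. Cells then received vehicle, the glucocorticoid mometasone (100 nM), the long-acting beta2-adrenoceptor agonist indacaterol (100 nM) or the muscarinic agonist carbachol (10 µM), each pair of these agents, or all 3 agents together. RNA was taken after 1, 2, 6 or 18 h, which gave 32 groups with 5 replicates planned in each. Nothing in the labels tells whether replicates were separate cultures; p-values thus measure the spread between these libraries, which may be technical.

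Transport by solute carriers is either downhill, as glucose crosses through the SLC2 proteins, or driven by a second solute such as sodium, protons or an exchanged amino acid. Several carriers are surface gateways for a nutrient (glucose, amino acids, thiamine, carnitine), others sit in lysosomes or the Golgi, and the SLC25 proteins carry metabolites across the inner mitochondrial membrane. A few work only as a pair: SLC3A2 is the heavy chain that brings the amino acid exchanger SLC7A5 to the cell surface. In airway epithelium, glucocorticoids act through a receptor that enters the nucleus and regulates transcription, and beta2-agonists act through cyclic AMP and its response element.

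Of the 160 libraries, 150 had a usable column, which left 24 groups of 5 libraries, 6 of 4 and 2 of 3. The authors call the values TPM, but their totals ran from 847289 to 1498421 per library, so they are called normalised signal here. Mitochondrial transcripts took between 5.88% and 28.3% of the signal, and the 6 libraries above 20% were all replicate 1. They were indacaterol at 1 and 2 h, mometasone with indacaterol at 6 h, indacaterol with carbachol at 2 h, and carbachol and all 3 agents at 1 h. No library of vehicle or of mometasone alone was among them. Of epithelial markers, the keratins KRT8 (303) and KRT18 (367) were abundant, while EPCAM (0.26), KRT19 (0.52), KRT5 (1.20) and CDH1 (3.31) were low, and of 4 mesenchymal markers VIM (1523), COL1A1 (629) and PDGFRB (110) were high and COL1A2 (1.63) was low. The sequenced RNA is from bulk cells, so fewer cells carrying a transcript and less transcript per cell cannot be told apart.

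The 172 carriers spanned a wide range of levels. Mean signal was at least 100 for 15 of them, between 10 and 100 for 101, and below 10 for 56, with a median of 15.6. Mitochondrial carriers led: SLC25A6 (mean 706) and SLC25A5 (425) exchange ADP for ATP, and SLC25A3 (689) imports phosphate. Those 3 genes held 25.5% of the signal of all 172 carriers. At the cell surface the most abundant were the lactate exporter SLC16A3 (257), the amino acid exchanger SLC7A5 (245), the glutamine transporter SLC38A2 (227), the chloride-bicarbonate exchanger SLC4A2 (152), the heavy chain SLC3A2 (152) and the glucose transporter SLC2A1 (113). In the endoplasmic reticulum and Golgi membranes the zinc transporter SLC39A7 reached 198.

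**Figure D1:**
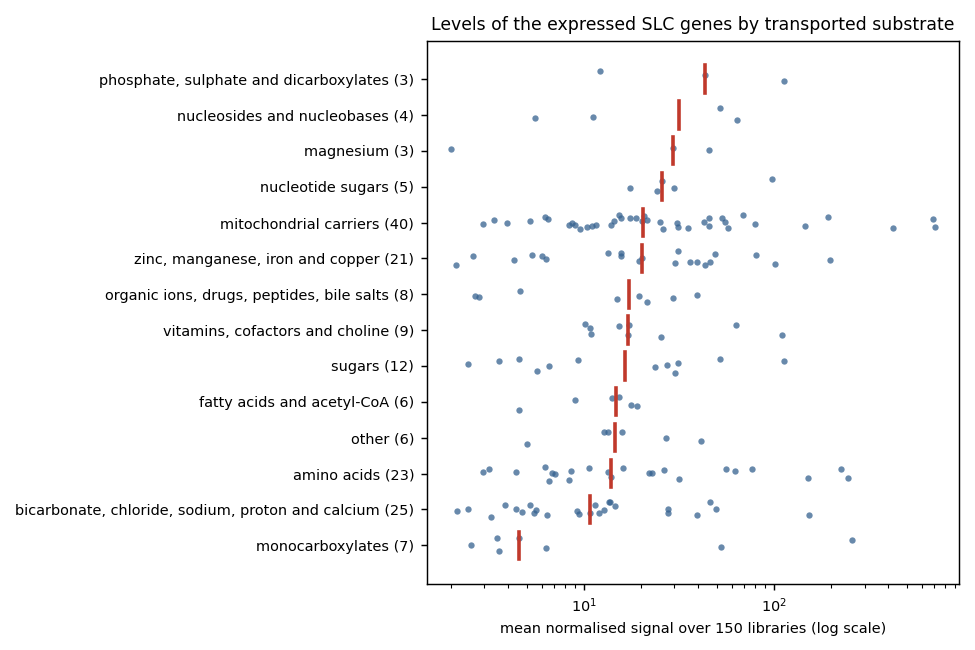
Mean normalised signal of each of the 172 carriers over 150 libraries (log axis), grouped by the kind of solute carried; each point is 1 gene and the red bar is the class median. The mitochondrial class holds the highest point (SLC25A6, 706), while the class median is highest for the class named phosphate, sulphate and dicarboxylates (43.4), which holds 3 genes.

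By class, the median of the genes' means was 20.4 for the 40 mitochondrial carriers and also 20.4 for the 21 carriers of zinc, manganese, iron and copper. It was 16.5 for 12 sugar carriers, 13.98 for 23 amino acid carriers and 10.7 for 25 carriers of bicarbonate, chloride, sodium, protons or calcium. The 7 monocarboxylate carriers had the lowest median, 4.57, although SLC16A3 is among them. The highest median, 43.4, was that of a class of 3: the phosphate carriers SLC20A2 (113) and SLC20A1 (43.4), and the lysosomal sialic acid carrier SLC17A5 (12.2). Although sulphate is in the name of that class, the sulphate transporter SLC26A2 is counted with the carriers of bicarbonate, chloride, sodium, protons or calcium. The name TPM implies a scale per transcript length, on which these levels are compared between genes; the values alone do not show how it was made.

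The mean of 2 is a convention and not a gap in the data. Just inside it were SLC41A2 (2.00), SLC40A1 (2.13), SLC8A1 (2.16) and SLC12A8 (2.45), and just outside were SLC10A7 (1.91), SLC45A1 (1.79), SLC16A10 (1.70) and SLC6A9 (1.69). Below it lay 165 carriers, 75 of them with a mean under 0.1. The mean was taken over all treatments: SLC7A2 (vehicle mean 0.808) and SLC16A14 (0.897) were under 2 in the 19 vehicle libraries and entered only through treated groups, so both had to differ. The counts of called carriers given later include both, and their changes are given as descriptions. The other 170 had a vehicle mean of at least 2. No carrier was listed at 0 in any of the 150 libraries, and all 172 passed the filter for testing.

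The carriers differed in how far they varied between groups. The ratio of the highest to the lowest of the 32 group means was below 1.5 for 44 carriers, at least 2 for 65 and at least 5 for 14. Its median was 1.82, against 1.72 for all tested genes with a mean of at least 2. Over the 4 times, 60 of the 172 passed the test (limma on log2 of the signal plus 1, Benjamini-Hochberg adjusted p below 0.05 over all 14827 tested genes) with mometasone, indacaterol or the pair of them against vehicle, as did 28.7% of all tested genes. Changes given from here on are differences on that log2 scale, where the change of a low gene is understated. The 3 comparisons share their vehicle libraries.

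**Figure D2:**
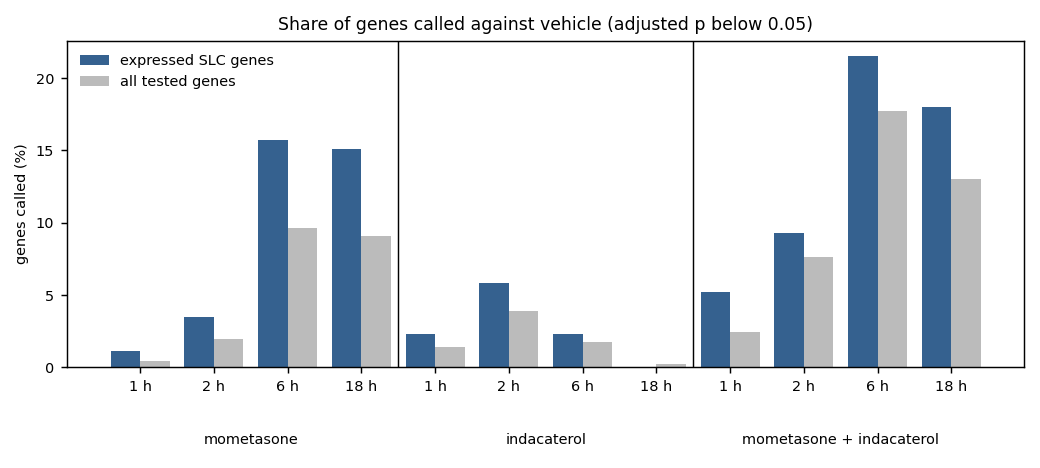
Percent of the 172 carriers (blue bars) and of all 14827 tested genes (grey bars) with an adjusted p below 0.05, for mometasone, indacaterol and both agents against vehicle at 1, 2, 6 and 18 h. The highest bar is that of both agents at 6 h, 21.5% of carriers against 17.7% of all tested genes; the tested genes include many of lower level than the carriers.

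Mometasone moved few carriers early and more at 6 and 18 h. At 1 h 2 carriers were higher and 0 lower, which is 1.16% of the 172 against 0.472% of all tested genes. At 2 h 4 were higher and 2 lower (3.49%, against 1.99%). At 6 h there were 18 rises and 9 falls (15.7%, against 9.61%), and at 18 h 14 rises and 12 falls (15.1%, against 9.1%). All tested genes include genes of lower level than the carriers, so the shares are given side by side and nothing is read from their difference. Over the 4 times 22 carriers rose and 14 fell, none did both, and 7.36% of all tested genes rose and 6.91% fell. SLC19A2 alone rose at all 4 times.

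SLC19A2, a thiamine (vitamin B1) transporter of the plasma membrane, had the largest rise with mometasone at 1, 2 and 6 h. At 2 h its signal was 3.90, 3.77, 4.02, 3.82 and 1.92 in vehicle (replicates 1 to 5) and 25.98, 32.7, 40.7, 33.1 and 18.4 with mometasone. Every mometasone library was above every vehicle library, and replicate 5 was the lowest of both groups. The log2 change was 2.78 (SE 0.28, 6.86-fold on that scale, adjusted p = 7.16e-15). Over all combinations at 2 h, libraries with mometasone ran from 18.4 through a median of 45.5 to 97.3, and those without ran from 1.92 through 5.19 to 11.2. At 1 h the vehicle values of SLC19A2 were 2.26, 3.28, 2.73, 4.10 and 1.37, and those with mometasone (replicates 1 to 4) were 9.56, 29.5, 9.62 and 31.1. The groups were apart, and replicates 2 and 4 stood about a factor of 3 above the other mometasone libraries. The change was 2.33 at 1 h (adjusted p = 1.10e-09), 2.26 at 6 h (2.78e-11) and 1.32 at 18 h (0.00288).

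The 2 organic cation and carnitine transporters SLC22A5 and SLC22A4 also rose. SLC22A5 takes up carnitine, which fatty acids need to enter mitochondria. Its signal at 2 h was 19.4, 15.1, 21.2, 13.03 and 11.4 in vehicle and 49.0, 48.7, 52, 54.7 and 34.5 with mometasone. No mometasone library fell within the vehicle range, and the change was 1.54 (SE 0.20, adjusted p = 9.56e-10). SLC22A5 also rose by 1.33 at 1 h and 1.37 at 6 h. Its value at 18 h was 0.58 (adjusted p = 0.122). SLC22A4, which takes up ergothioneine, had 8.66, 8.61, 9.28, 9.73 and 6.07 in vehicle at 2 h and 14.6, 15.3, 12.4, 15.9 and 13.9 with mometasone. Those ranges did not overlap either, and SLC22A4 rose by 0.71 at 2 h (adjusted p = 0.0159) and 0.89 at 6 h (1.88e-04).

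Other rises came later. SLC46A3, a lysosomal membrane carrier, read 7.59, 5.62, 6.43, 6.68 and 5.54 in vehicle at 6 h and 20.3, 13.7, 26.6, 17.4 and 20.1 with mometasone. Every mometasone library was higher, also in combinations: with mometasone SLC46A3 ran from 13.7 through 21.3 to 30.5 and without it from 4.54 through 6.04 to 7.91. Its change was 0.93 at 2 h, 1.46 at 6 h (SE 0.15, adjusted p = 1.66e-14) and 0.96 at 18 h. The sulphate transporter SLC26A2 rose by 1.15 at 6 h (adjusted p = 0.00332) and 1.34 at 18 h (0.00535), and the anion exchanger SLC26A6 by 0.55 and 0.91. SLC41A3, a mitochondrial magnesium carrier, read 46.7, 49.9, 37.95 and 40.5 in the 4 vehicle libraries at 18 h (replicates 2 to 5) and 68.8, 62.8 and 69.0 in the 3 with mometasone (replicates 2 to 4). Its groups were apart, with a change of 0.61 (SE 0.13, adjusted p = 3.33e-04).

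SLC16A14, a member of the monocarboxylate transporter family, was among the lowest carriers in vehicle. At 18 h its signal was 0.68, 0.47, 0.42 and 0.67 in vehicle (replicates 2 to 5) and 10.7, 10.7 and 8.81 with mometasone (replicates 2 to 4). No library lay between the groups. SLC16A14 changed by -0.06 at 1 h and 0.62 at 2 h, neither called (the second was called with the replicate block), and by 1.81 at 6 h and 2.82 at 18 h (SE 0.23), both called. The cationic amino acid transporter SLC7A2, which imports arginine, rose by 0.95 at 6 h and 0.75 at 18 h. Both had to differ for the reason given with the threshold. Smaller rises at 6 or 18 h included SLC22A23 (0.74 at 6 h), SLC12A8 (0.88 at 6 h), the leucine transporter SLC43A1 (0.51 at 6 h), the mitochondrial glycine carrier SLC25A38 (0.36 at 6 h, 0.37 at 18 h), the Golgi sodium-proton exchanger SLC9A8 (0.47, 0.45) and the zinc transporter SLC39A13 (0.39 at 6 h).

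Among the 14 carriers that fell with mometasone were 4 of the 12 sugar carriers, of which 1 other rose, and 5 of the 23 amino acid carriers, of which 2 others rose. These are counts, with no test of either class. SLC2A3, the high-affinity glucose transporter, read 14.5, 35.5, 32.96, 38.02 and 19.8 in vehicle at 6 h and 5.33, 5.47, 7.74, 12.01 and 9.04 with mometasone. All mometasone libraries were lower, and over every combination at 6 h the range was 5.33 to 12.01 with mometasone and 14.5 to 78.4 without. SLC2A3 fell by 1.68 at 6 h (SE 0.33, adjusted p = 5.23e-05) and by 1.77 at 18 h (adjusted p = 6.3e-04).

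SLC2A1, the main basal glucose transporter, read 93.4, 143, 181, 144 and 103 in vehicle at 6 h and 62.1, 40.1, 69.6, 73.5 and 42.9 with mometasone. The ranges did not overlap, and SLC2A1 fell by 1.19 (SE 0.30, adjusted p = 0.00227). At 18 h its values were 135, 292, 155 and 81.9 in vehicle and 45.7, 96.8 and 45.6 with mometasone, where replicate 3 with mometasone was above replicate 5 of vehicle, and SLC2A1 fell by 1.34 (adjusted p = 0.00611). SLC2A6, a lysosomal member of the family, fell by 0.55 at 18 h (adjusted p = 0.0371).

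SLC16A3, which exports lactate from glycolytic cells, read 243, 450, 211 and 248 in vehicle at 18 h (replicates 2 to 5) and 116, 216 and 135 with mometasone (replicates 2 to 4). Replicate 3 was the highest of both groups and made them overlap by 1 library. SLC16A3 fell by 0.60 at 6 h (adjusted p = 0.00711) and 0.87 at 18 h (SE 0.20, adjusted p = 8.0e-04).

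The amino acid exchanger pair fell too. SLC7A5, which imports leucine and other large neutral amino acids, read 90.0, 96.3, 72.2 and 111 in vehicle at 18 h and 38.1, 42.5 and 36.9 with mometasone. Over every combination at 18 h it was 31.3 to 47.04 with mometasone and 72.2 to 137 without, so the groups were apart. It fell by 0.87 at 6 h (adjusted p = 1.89e-08) and 1.20 at 18 h (SE 0.15, adjusted p = 1.66e-10). Its heavy chain SLC3A2 read 92.1, 97.1, 87.5 and 147 in vehicle at 18 h and 66.2, 64.1 and 68.6 with mometasone, and fell by 0.64 (adjusted p = 0.0143). The taurine transporter SLC6A6 read 21.8, 19.99, 19.99 and 9.90 in vehicle at 18 h and 7.45, 5.85 and 7.23 with mometasone. All 3 were lower than any vehicle library, and SLC6A6 fell by 0.72 at 6 h and 1.22 at 18 h (adjusted p = 1.25e-04). The neutral amino acid exchanger SLC1A5 fell by 0.52 and the creatine transporter SLC6A8 by 0.53 at 18 h. SLC25A25, which exchanges ATP-magnesium for phosphate across the inner mitochondrial membrane, read 12.4, 12.2, 10.2, 11.6 and 12.2 in vehicle at 6 h and 7.36, 5.79, 7.08, 6.88 and 7.91 with mometasone, with every treated library lower. It fell by 0.59 at 2 h, 0.67 at 6 h and 0.65 at 18 h.

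**Figure D3:**
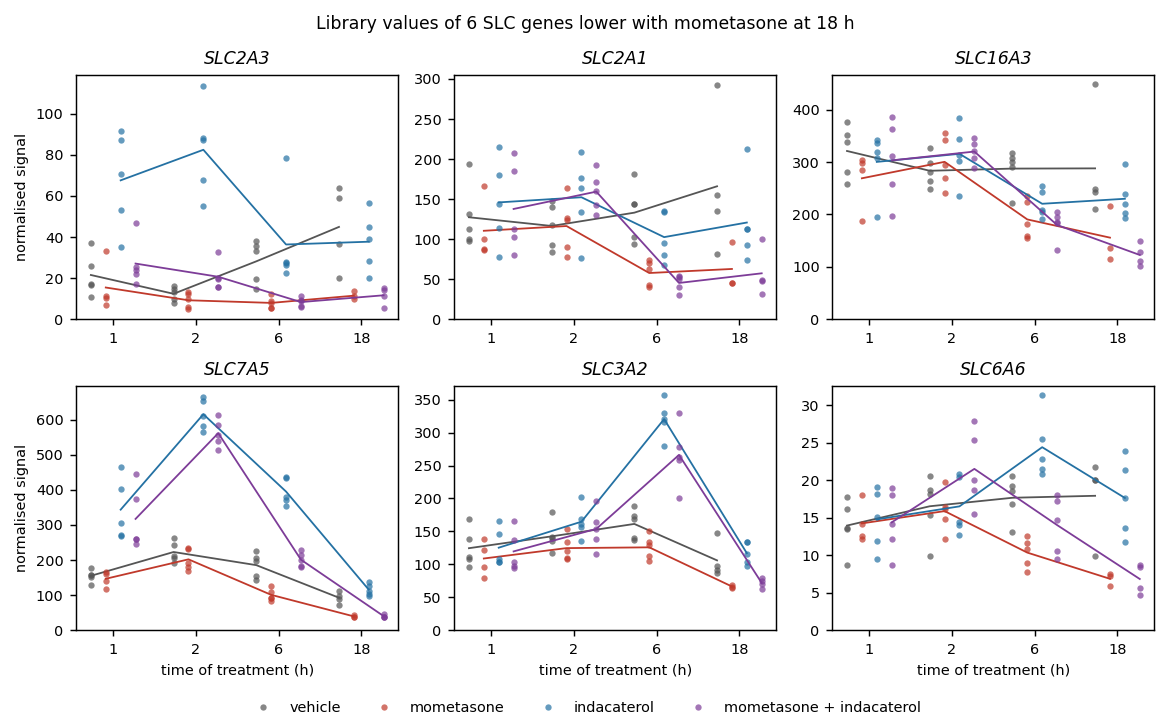
Normalised signal of SLC2A3, SLC2A1, SLC16A3, SLC7A5, SLC3A2 and SLC6A6 at 1, 2, 6 and 18 h in vehicle, mometasone, indacaterol and both agents; points are libraries and lines join group means. The mometasone points of SLC7A5 at 18 h (36.9 to 42.5) lie under all vehicle points (72.2 to 111).

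Libraries with mometasone in any combination did not overlap those without it for 0 carriers at 1 h (0.101% of all tested genes), for SLC19A2 at 2 h (0.452%), for 8 carriers at 6 h (2.5%) and for 8 at 18 h (3.8%). At 6 h these were SLC16A14, SLC19A2, SLC22A4, SLC22A5, SLC26A2 and SLC46A3, all higher, and SLC25A25 and SLC2A3, lower. At 18 h they were SLC16A14, SLC19A2, SLC41A3 and SLC46A3, higher, and SLC2A3, SLC3A2, SLC6A6 and SLC7A5, lower. Both counts of 8 include SLC16A14, which met the mean of 2 only through treated groups. Its separation is thus a description and not support for a difference. A fit that paired libraries by replicate number (a replicate block), which the pairing check allowed at 1 and 2 h, called 6 carriers at 1 h and 12 at 2 h. Scaling all libraries to equal totals, which shifted the median of all genes by 0.19 at 18 h, gave 9 rises with 10 falls at 6 h, and 14 rises with 4 falls at 18 h. Of the 27 carriers called at 6 h, 16 kept their call with equal totals and 15 without replicate 2. Median-of-ratios scaling gave 5 higher and 1 lower at 2 h. Leaving out replicate 2 lowered the counts to 15 at 6 h and 9 at 18 h, leaving out replicate 4 gave 16 at 18 h, and leaving out replicate 1 gave 3 at 2 h. At 18 h the calls of SLC2A1 (without replicate 2 or 4, or with equal totals), SLC16A3 (without 2, or with equal totals), SLC3A2 (without 2 or 3, or with equal totals), SLC26A2 (without 2) and SLC24A1 (without 2, 4 or 5) were lost. A fit of only the groups compared called 0 carriers at 1 h and 7 at 18 h, without SLC2A1, SLC2A3, SLC3A2, SLC6A6, SLC16A3 and SLC26A2 at 18 h.

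Indacaterol moved fewer carriers, and every one that passed the test was higher. There were 4 at 1 h (2.33% of carriers, against 1.4% of all tested genes), 10 at 2 h (5.81%, against 3.91%), 4 at 6 h (2.33%, against 1.74%) and 0 at 18 h (0.202% of all tested genes). At 18 h limma gave 3 carriers an unadjusted p below 0.05, and each alternative fit run there, the replicate block included, also called 0. Over the times 12 carriers rose (5.21% of all tested genes were called): 4 for amino acids, 2 for sugars, 2 for organic ions and 4 of other classes. With the block 26 were called at 2 h, 23 higher and 3 lower.

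The largest rise was that of SLC2A3, the glucose transporter that fell with mometasone. At 2 h it read 10.1, 14.7, 16.02, 13.1 and 7.86 in vehicle and 68.0, 87.4, 88.4, 114 and 55.1 with indacaterol. Each indacaterol library was over 3 times the highest vehicle library, and SLC2A3 rose by 2.64 (SE 0.33, 6.24-fold, adjusted p = 1.79e-10). It had risen by 1.64 at 1 h (adjusted p = 3.2e-04) and was not called at 6 h.

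SLC7A5 rose at 1, 2 and 6 h. At 2 h its values were 263, 213, 206, 191 and 242 in vehicle and 654, 565, 612, 582 and 666 with indacaterol. All indacaterol libraries were higher, and over every combination at 2 h SLC7A5 was 490 to 666 with indacaterol and 170 to 294 without. The changes were 1.12, 1.47 (SE 0.13, adjusted p = 8.79e-19) and 1.10. Its heavy chain SLC3A2 rose at 6 h, from 169, 139, 173, 137 and 188 in vehicle to 357, 280, 316, 329 and 321, again without overlap (0.99, SE 0.16, adjusted p = 1.02e-06). SLC25A25 read 18.6, 14.7, 23.8, 15.4 and 16.2 in vehicle at 1 h and 33.97, 28.5, 48.9, 27.5 and 31.3 with indacaterol. The lowest indacaterol library was above the highest vehicle library, with a change of 0.89 at 1 h (adjusted p = 2.51e-06) and 0.54 at 2 h (0.0118).

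Others rose by smaller amounts. The carnitine transporter SLC22A5 read 32.4, 28.2, 35.8, 28.4 and 23.7 with indacaterol at 2 h, above all of its vehicle values, and rose by 0.80 at 1 h and 0.87 at 2 h. SLC22A4 rose by 0.77 at 2 h, SLC19A2 by 0.95 at 2 h (adjusted p = 0.0231), and SLC7A2 by 0.92 at 2 h and 1.12 at 6 h. SLC38A2, which imports glutamine and other small neutral amino acids with sodium, read 100, 134, 160, 157 and 61.7 in vehicle at 2 h and 168, 256, 364, 411 and 179 with indacaterol. Every indacaterol library exceeded the highest vehicle library, and SLC38A2 rose by 1.15 (SE 0.33, adjusted p = 0.0228). SLC27A2, which takes up and activates very long-chain fatty acids, rose by 0.66 at 6 h. The zinc transporter SLC30A5 and the sugar transporter SLC50A1 rose by 0.42 and 0.41 at 2 h.

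Libraries with and without indacaterol did not overlap for SLC7A5 at 1 h (0.223% of all tested genes), SLC7A5 at 2 h (0.755%), SLC29A2 at 6 h (0.236%) and 0 carriers at 18 h (0.0405%). SLC29A2, a nucleoside transporter, was lower: it ran from 7.09 to 10.4 with indacaterol at 6 h and from 10.6 to 15.9 without. Against vehicle alone its change was -0.40 and not called (adjusted p = 0.0733). With equal library totals, which shifted the median of all genes by -0.10 at 2 h, 4 carriers were called at 2 h, and at 6 h 4 rises with 1 fall, and the 2 h calls of SLC19A2, SLC22A4, SLC22A5, SLC38A2 and SLC30A5 were lost. Without replicate 4 the count was 2 at 1 h, without replicate 1 or 4 it was 6 at 2 h, and the calls of SLC19A2 and SLC38A2 at 2 h were lost without replicate 1, 2, 3 or 4, as was that of SLC27A2 at 6 h without 2, 3 or 4. SLC22A4 was lost without replicate 1, SLC50A1 without 1 or 4 and SLC30A5 without 5 at 2 h. The SLC50A1 call was also lost with median-of-ratios scaling and without the libraries over 20% mitochondrial. A fit of only the groups compared called 1 carrier at 1 h and 6 at 2 h, and a fit of each time alone called 8 at 6 h.

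Cyclic AMP acts on promoters through a short element whose full letters are TGACGTCA and whose core is TGACG. Both were searched on each strand in RefSeq promoter windows of GRCh38.p14 that run from 250 bases before a transcript start to 50 after it; 139 of the 172 carriers had 213 windows. The core stood in 24.6% of all 35116 windows, in 29.6% of the carriers' windows and in 9 of 16 windows (56.2%) of the carriers that rose with indacaterol. Counted by gene, it stood in 58 of the 139 carriers with a window and in 8 of the 10 that rose with indacaterol. It stood in 7 of 21 genes that rose with mometasone and 12 of 29 that rose with both agents. The share by gene was not counted over all genes, and a gene with more windows has more chances of a match. SLC19A2 counts with 2 overlapping windows that hold the same match. For carriers that rose with mometasone the share was 27.6% of 29 windows, and for those that rose with both agents 32.5% of 40. The full element includes the core on each strand and stood in 1.85% of all windows and 2.35% of the carriers'. A match is a description of letters and not a site shown to be used. The 250 bases before the start are shown for 5 carriers that rose with indacaterol, picked after their values were seen because their windows hold the core. Capitals mark TGACG, its reverse complement CGTCA, or the full element.
SLC25A25, chr9:128098257-128098506 (plus strand): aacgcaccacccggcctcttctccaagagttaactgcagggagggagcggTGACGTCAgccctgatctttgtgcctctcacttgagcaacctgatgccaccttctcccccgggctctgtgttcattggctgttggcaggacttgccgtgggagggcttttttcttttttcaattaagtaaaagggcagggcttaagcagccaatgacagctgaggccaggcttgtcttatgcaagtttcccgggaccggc
SLC7A5, chr16:87869508-87869757 (minus strand): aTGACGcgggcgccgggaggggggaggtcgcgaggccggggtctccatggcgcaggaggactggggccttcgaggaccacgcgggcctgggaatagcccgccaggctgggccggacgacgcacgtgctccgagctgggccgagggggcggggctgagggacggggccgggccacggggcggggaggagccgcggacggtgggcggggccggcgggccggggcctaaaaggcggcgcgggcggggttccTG
SLC19A2, chr1:169485971-169486220 (minus strand): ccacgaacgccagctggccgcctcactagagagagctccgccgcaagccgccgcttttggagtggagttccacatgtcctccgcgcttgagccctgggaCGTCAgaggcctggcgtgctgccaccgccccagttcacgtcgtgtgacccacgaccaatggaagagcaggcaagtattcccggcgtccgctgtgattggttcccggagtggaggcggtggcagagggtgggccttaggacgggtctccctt
SLC22A4, chr5:132294144-132294393 (plus strand): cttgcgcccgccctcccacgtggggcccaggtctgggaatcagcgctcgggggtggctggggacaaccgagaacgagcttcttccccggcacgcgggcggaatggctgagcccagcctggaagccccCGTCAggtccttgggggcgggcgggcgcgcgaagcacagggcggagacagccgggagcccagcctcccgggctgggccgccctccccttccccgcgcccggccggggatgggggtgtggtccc
SLC38A2, chr12:46372774-46373023 (minus strand): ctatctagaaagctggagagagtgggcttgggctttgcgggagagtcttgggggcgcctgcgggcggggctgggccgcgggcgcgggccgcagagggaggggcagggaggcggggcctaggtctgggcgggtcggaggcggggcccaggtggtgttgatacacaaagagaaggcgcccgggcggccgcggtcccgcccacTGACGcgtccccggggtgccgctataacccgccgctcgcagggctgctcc

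In SLC25A25 the full element begins 200 bases before the start of 1 of its 3 windows. SLC7A5 holds the core 249 bases before the start and again 2 bases before it, so the second match runs past the printed stretch. In SLC19A2, SLC22A4 and SLC38A2 the core or its complement begins 151, 123 and 50 bases before the start. The glucocorticoid short element AGAACA, or TGTTCT on the other strand, stood in 14.8% of all windows, 8.92% of the carriers' and 4 of 29 windows (13.8%) of the carriers that rose with mometasone, those of SLC25A38, SLC26A6, SLC41A3 and SLC46A3. The full glucocorticoid response element, searched only as AGAACA and TGTTCT with 3 free bases between them, was in 1 window of all and 0 of the carriers'. Forms that differ in any other base, and bases outside the windows, were not searched. The 0 thus does not show that these carriers lack such elements. The letters TGCNCNC, a loose pattern for the metal response element in which N is any base, were searched on both strands. They stood in 55.9% of all windows and 66.7% of the carriers', so a match does not mark out such an element. The pattern TGATGNAA of the amino acid response element stood in 3.62% and 4.23%.

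With mometasone and indacaterol together, 9 carriers were higher at 1 h (5.23%, against 2.44% of all tested genes), 15 rose and 1 fell at 2 h (9.30%, against 7.65%), 25 rose and 12 fell at 6 h (21.5%, against 17.7%), and 17 rose and 14 fell at 18 h (18.0%, against 13%). Over the times 33 only rose, 17 only fell and 2 did both, while 14.9% of all tested genes rose and 11.9% fell at some time. The 2 moved as follows: SLC7A5 rose at 1 and 2 h and fell at 18 h, and SLC3A2 rose at 6 h and fell at 18 h. SLC16A14, SLC19A2, SLC26A2, SLC46A3 and SLC7A2 rose at all 4 times.

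SLC19A2 reached its highest signal with both agents at 2 h, 74.4, 82.0, 97.3, 81.0 and 49.0. All 5 were above every library with mometasone alone, whose highest was 40.7, and above every one with indacaterol alone, whose values were 6.44, 6.86, 9.75, 9.15 and 5.99. The change against vehicle was 4.11 (SE 0.28, 17.3-fold, adjusted p = 1.62e-26). At 1 h SLC19A2 read 27.8, 69.6, 20.4, 72.9 and 17.2 with both, replicates 2 and 4 again the highest, with a change of 3.30.

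SLC22A5 read 159, 152, 207, 185 and 137 with both agents at 2 h, far above its highest library with either agent alone (54.7 and 35.8). Its change was 3.33 (SE 0.20, 10.1-fold, adjusted p = 1.36e-30), and 2.31 at 1 h and 1.88 at 6 h. SLC22A4 was likewise higher with both agents than with either alone: 44.5, 40.6, 62.4, 50.4 and 42.9 with both at 2 h, against 21.1, 12.7, 15.03, 14.9 and 12.4 with indacaterol alone. SLC22A4 rose by 2.37 at 2 h (5.18-fold, adjusted p = 2.81e-21).

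SLC26A2, the sulphate transporter, read 13.6, 14.4, 18.5, 18.8 and 7.49 in vehicle at 2 h, 26.5, 25.9, 39.4, 28.1 and 18.2 with mometasone, and 13.3, 21.1, 42.4, 34.4 and 20.3 with indacaterol. With both agents it read 151, 135, 188, 174 and 87.6, each above every library with 1 agent. The change with both was 3.26 (SE 0.30, 9.60-fold, adjusted p = 7.07e-18), while mometasone alone gave 0.90 (adjusted p = 0.117, or 2.99e-06 with the block) and indacaterol alone 0.76 (0.194, or 7.05e-05). SLC38A2 also had its largest change at 2 h with both agents, but its libraries overlapped. It read 512, 580, 739, 743 and 292 with both agents at 2 h, against 213, 252, 328, 282 and 150 with mometasone alone. The library at 292 was below the highest with mometasone alone (328) and below the highest with indacaterol alone. SLC38A2 rose by 2.22 with both (4.66-fold), while mometasone alone gave 1.02 (adjusted p = 0.111, or 4.36e-14 with the block).

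SLC7A2 read 1.34, 0.61, 0.74, 0.87 and 0.66 in vehicle at 2 h, 1.55, 1.10, 1.19, 1.42 and 1.32 with mometasone, 2.95, 1.85, 1.97, 3.25 and 2.48 with indacaterol, and 14.1, 9.78, 10.1, 14.4 and 8.36 with both. Only the libraries with both agents were above 3.25 among these groups. At 6 h both agents gave 13.3, 16.2, 10.8, 16.4 and 13.02, a change of 2.97 (7.83-fold). SLC16A14 had 1.08, 1.14, 0.55, 0.59 and 0.76 in vehicle at 2 h, 3.16, 1.37, 0.77, 1.21 and 3.31 with mometasone, 0.93, 0.46, 0.72, 0.64 and 1.08 with indacaterol, and 9.99, 4.59, 5.72, 6.88 and 7.83 with both. Its libraries with both agents were above all the others.

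**Figure D4:**
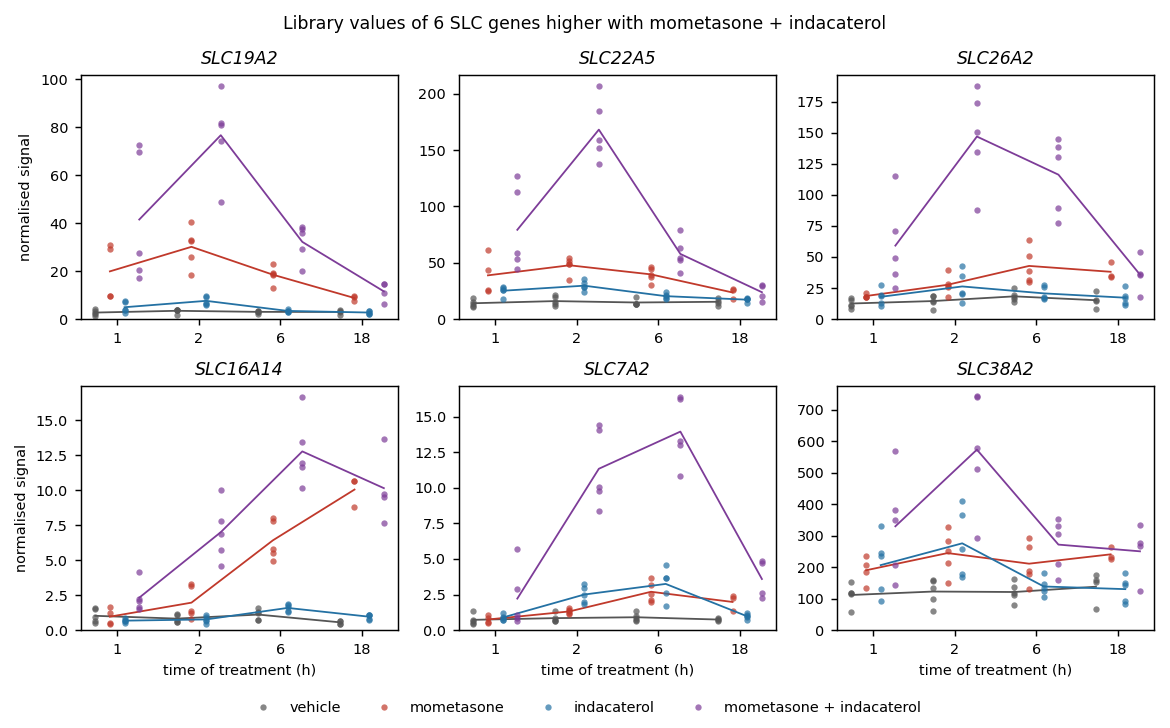
Normalised signal of SLC19A2, SLC22A5, SLC26A2, SLC16A14, SLC7A2 and SLC38A2 at 1, 2, 6 and 18 h in vehicle, mometasone, indacaterol and both agents; points are libraries and lines join group means. At 2 h the points with both agents lie above all others for SLC22A5 (137 to 207) and SLC26A2 (87.6 to 188).

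Whether both agents together differed from the sum of their separate log2 changes was tested as an interaction. It was called for 0 carriers at 1 h (0.0742% of all tested genes), 2 at 2 h (0.405%), 0 at 6 h (0.216%) and 0 at 18 h (0.0674%). The 2 were SLC16A14 (1.53, SE 0.27) and SLC7A2 (1.47, SE 0.28), both above the sum. Both are the carriers that met the mean of 2 only through treated groups, so these values are a description and no p is given. SLC26A2 came near the threshold (1.60, adjusted p = 0.0509), and for SLC2A3 the difference was -1.52 (adjusted p = 0.216). At an unadjusted p below 0.05 limma gave 7, 9, 5 and 2 carriers over the 4 times, and the replicate block called 2, 8, 3 and 0. The call of SLC16A14 was lost in a fit of only the 4 groups compared, and that of SLC7A2 with a pseudocount of 0.1.

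Other carriers that passed with both agents were spread over roles. SLC27A2 rose by 0.99 at 2 h and by 1.68 at 6 h, where its signal was 5.78, 16.8, 10.4, 18.5 and 10.6 against 3.91, 2.34, 2.71, 2.56 and 3.20 in vehicle, without overlap. SLC46A3 rose by 0.78, 1.48, 1.85 and 1.68 from 1 to 18 h. SLC7A11, which imports cystine for glutathione, rose by 0.84 at 2 h (adjusted p = 0.01), SLC39A14, a zinc and manganese importer, by 0.64 at 2 h (0.0323), and SLC43A1 by 0.81 at 6 h. In mitochondria SLC25A14, SLC25A29, SLC25A28 (an iron carrier) and SLC25A38 rose at 6 h by 0.60, 0.66, 0.54 and 0.41, and the ADP/ATP exchanger SLC25A4 fell by 0.38.

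Among the carriers that fell with both agents, SLC2A3 fell by 1.59 at 6 h and 1.82 at 18 h. At 2 h its signal was 19.5, 32.5, 20.1, 15.6 and 15.6, of which 3 were above the highest vehicle library (0.69, adjusted p = 0.295, not called). SLC2A1 fell by 1.53 at 6 h and was called lower again at 18 h. SLC2A6 fell by 0.76 at 6 h and 0.59 at 18 h, and SLC16A3 by 0.68 and 1.18, the last from vehicle values of 211 to 450 to 101, 150, 128 and 111 (replicates 2 to 5). SLC7A5 fell by 1.18, SLC6A6 by 1.25 and SLC29A2 by 0.83 at 18 h. The sodium-potassium-chloride cotransporter SLC12A2 fell by 0.67 at 6 h and 0.82 at 18 h. SLC8A1, the sodium-calcium exchanger, fell by 1.46 at 18 h (adjusted p = 0.0157), from vehicle values of 3.63, 7.09, 3.67 and 0.37 that already spread widely, and the call was lost without replicate 2, 3 or 4.

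**Figure D5:**
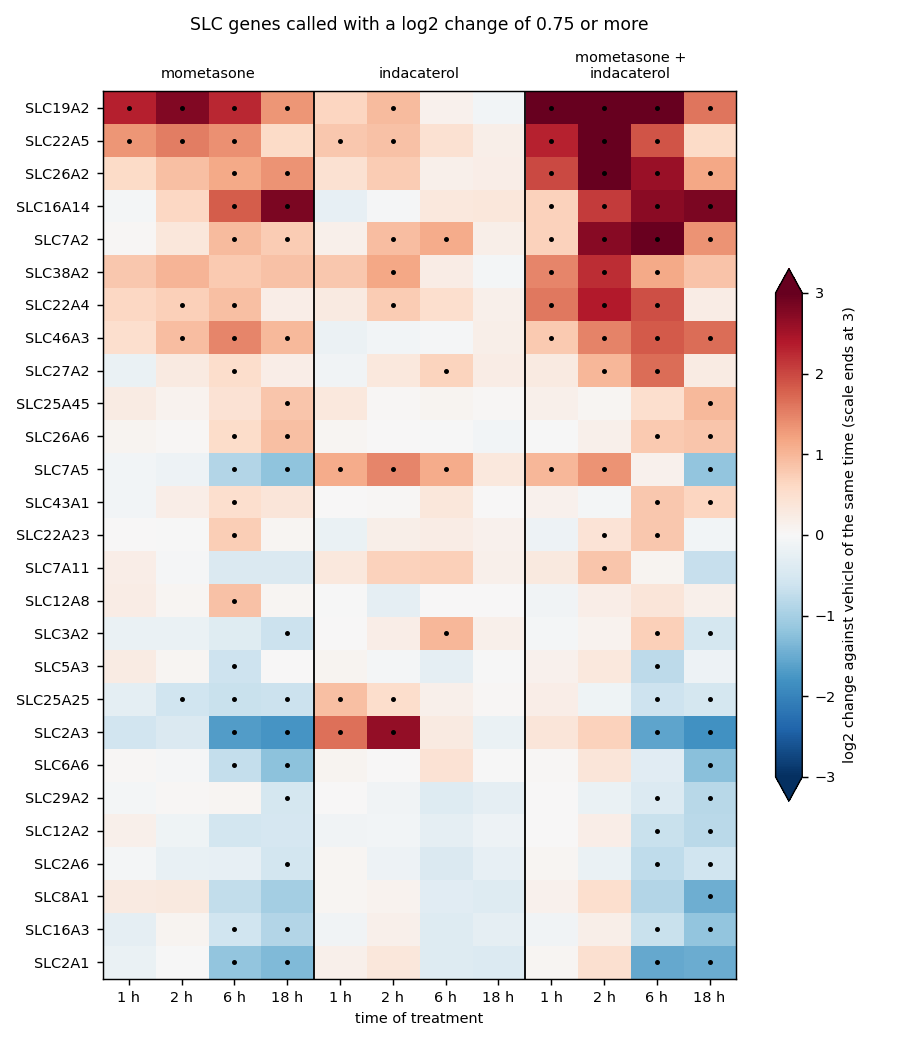
Log2 change against vehicle of the 27 carriers called with a change of at least 0.75 in either direction (rows) in mometasone, indacaterol and both agents at 1, 2, 6 and 18 h (columns); dots mark calls and the colour scale ends at 3. SLC19A2 is called in all columns of mometasone and of both agents, and SLC2A3 turns from higher at 2 h with indacaterol to lower at 6 and 18 h with mometasone.

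At 18 h the block, allowed there by the pairing check, called 66 carriers with both agents, 31 higher and 35 lower. With equal library totals the 18 h split was 18 higher and 7 lower, after a shift of 0.13 in the median of all genes. Without replicate 2 the count at 18 h was 18, and in a fit of only the groups compared it was 11, with 5 at 1 h. Of the 37 calls at 6 h, 31 were kept without the libraries over 20% mitochondrial. With equal totals 29 of them were kept, as were 29 without replicate 1 and 29 without replicate 2. Calls lost with equal totals included those of SLC7A11 and SLC39A14 at 2 h, SLC25A29 at 6 h and SLC12A2 at 18 h. SLC7A11 was also lost without replicate 1 or 2, SLC39A14 without 1, 2, 3 or 4, and SLC12A2 at 18 h without 2 or 4.

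Some carriers were called with each agent at some time. SLC19A2, SLC22A4, SLC22A5, SLC27A2 and SLC7A2 rose with each. SLC2A3, SLC7A5, SLC3A2 and SLC25A25 rose with indacaterol and fell with mometasone, mostly at different times: indacaterol at 1 to 6 h, mometasone at 2 to 18 h. SLC7A5 at 6 h changed by 1.10 with indacaterol and by -0.87 with mometasone, and SLC25A25 at 2 h by 0.54 and -0.59. With both agents at 1 h SLC25A25 changed by 0.21 and was not called (adjusted p = 1). Because the 2 comparisons use the same vehicle libraries, these pairs of values are not independent.

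Carbachol, averaged over its 4 backgrounds (with and without each other agent), was called for 0 carriers at 1, 2, 6 and 18 h, where 0.189%, 0.121%, 0% and 0% of all tested genes were called. Unadjusted p was below 0.05 in limma for 5, 3, 2 and 1 carriers, and the block called 3, 1, 1 and 0. In vehicle alone, from 1 to 18 h, 1 carrier was called (0.121% of all tested genes): SLC7A5 fell by 0.75 (SE 0.13, adjusted p = 3.52e-04). It was not called in a fit of these groups alone, and without replicate 5 the count was 2.

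Genes that work beside these carriers were taken from a list of partners, regulators and metabolic enzymes, of which 28 were tested. With mometasone 1, 1, 3 and 0 of them were higher and 0, 0, 4 and 5 lower at 1, 2, 6 and 18 h. With indacaterol 1, 3, 0 and 0 were higher and 1, 1, 1 and 0 lower. With both agents 2, 3, 3 and 1 were higher and 2, 1, 6 and 6 lower. Of all tested genes, 0.472%, 1.99%, 9.61% and 9.1% were called with mometasone at these times. The shares were 1.4%, 3.91%, 1.74% and 0.202% with indacaterol, and 2.44%, 7.65%, 17.7% and 13% with both agents. The list was not tested as a set, and only some of its genes are named below. HK2, the hexokinase that traps the glucose brought in by SLC2A1 and SLC2A3, fell by 1.99 at 6 h and 1.77 at 18 h with mometasone, and LDHA, which makes the lactate that SLC16A3 exports, fell by 1.21 at 18 h. PFKFB3, an activator of glycolysis, rose by 0.79 at 2 h with indacaterol, while TXNIP, which restrains glucose uptake, fell by 1.44 at 1 h and 1.54 at 2 h. SGK1, a kinase that keeps several transporters at the surface, rose by 2.36 with mometasone and 3.95 with indacaterol at 1 h, and NEDD4L, the ubiquitin ligase it restrains, fell by 1.41 at 6 h with mometasone. ATF4, which drives amino acid carrier genes, rose by 0.41 at 6 h with mometasone.

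Some carriers share sequence or position with other genes, and how the authors assigned reads, and whether they used strand, is not given in the sources used here. SLC5A3 lies within MRPS6 on the same strand, and its neighbour's mean was 108 against 6.55, so the falls called for SLC5A3 at 6 h are uncertain. SLC16A3 overlaps CSNK1D, SLC22A23 overlaps PSMG4 (42.0 against 2.66), SLC9A3 overlaps EXOC3 (97.2), and SLC22A4 and SLC22A5 overlap MIR3936HG. Near-identical copies were low: SLC2A14, the copy of SLC2A3, averaged 0.361, and SLC7A5P1 averaged 1.85 against 245 for SLC7A5.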

How the data were processed

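RNA of BEAS-2B cells was sequenced, and the deposited table gives 1 normalised signal per gene and library, which the authors call TPM although library totals differ widely. The submitters' processing notes list STAR 2.4.2a, bcl2fastq 2.17.1.14 and GRCh38 as the genome; for the quantifier, annotation, strand use and scaling nothing is given in the sources used. Although the design expected TPM, its test on log2(value + 1) was kept. Depth is unknown, so precision rests on the spread between libraries. Column headers name treatment, replicate and time, and were mapped to samples on these. A further 10 columns of sample values were not used: 6 headed 8h, a time no label gives, and 4 marked as excluded.

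The test took the 14827 of 29273 genes that reached a value of 1 in 5 or more libraries, with limma 3.58.1 in R 4.3.3 on log2(value + 1), in 1 model of 32 groups with 118 residual degrees of freedom and an eBayes trend. P-values were Benjamini-Hochberg adjusted over all tested genes within each of 21 comparisons, with calls below 0.05. On simulated data for mometasone at 6 h with 14827 genes, 83.3% of genes changed by 1 on the log2 scale and 34.6% of those changed by 0.5 were recovered. The simulation also called 5 unchanged genes. Its noise was independent between libraries, without the shared deviation of same-numbered libraries, and only genes above a low level were changed. These shares thus need not hold for the real libraries. A rule picked carriers to name: the 12 largest rises and 8 largest falls per agent comparison among called carriers. It also picked up to 4 per class, the 15 highest levels, and all calls of the interaction, carbachol and vehicle comparisons. Not every carrier it picked is named in the text. Some changes named, such as those of SLC43A1, SLC25A38 and SLC1A5, were outside it. These, carriers named for their separate ranges, and the sequences printed were chosen after their values were seen. Carriers and gene lists were chosen with earlier results of these data known. Some SLC genes are not reported here.

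Replicate numbers come from the labels. Same-numbered libraries deviated together, with every pair's correlation over 0.1, for mometasone at 1 h (0.149 to 0.584, 4 pairs) and 2 h (0.263 to 0.758, 5 pairs), indacaterol at 2 h (0.142 to 0.613, 5 pairs) and 18 h (0.356 to 0.778, 4 pairs), and both agents at 18 h (0.254 to 0.852, 4 pairs). Gene overlaps used GENCODE 29, which matched 168 of the 172 carriers. Alternatives were a pseudocount of 0.1, no filter, each time or only the groups compared in a fit, median-of-ratios scaling, equal library totals, no libraries over 20% mitochondrial, a replicate block, and each replicate left out.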

Additional observations from a re-analysis of the deposited data

Results flagged for a closer look

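In 5 of 95 groups of 4 or 5 libraries examined for called carriers, 1 library stood far from the others; chance alone does this in about 1 in 20 groups. SLC19A2 in vehicle at 2 h read 1.92 in replicate 5 and 3.77 to 4.02 in the other 4. SLC6A6 in vehicle at 18 h read 9.90 in replicate 5 and 19.99 to 21.8 in the others. SLC16A3 in vehicle at 18 h read 450 in replicate 3 and 211 to 248 in the others. SLC3A2 in vehicle at 18 h read 147 in replicate 5 and 87.5 to 97.1 in the others. SLC66A2 with both agents at 2 h read 73.5 in replicate 5 and 52.6 to 58.4 in the others.

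The change with mometasone at 2 h stood apart with and without indacaterol, as called by the interaction term, for SLC16A14 (log2 difference 1.53) and SLC7A2 (1.47); both were higher with both agents than the sum of the separate changes. These 2 met the mean of 2 only through treated groups where they are high, so the values are a description and not support for a difference.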

How the results depend on the processing

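The check by result covered the 89 carrier changes picked by the rule given above. None of the 89 changed direction under any alternative run, and 34 of the 66 that were called kept their call under all of them. Other changes given in the text, such as that of SLC2A1 with mometasone at 6 h, were not in that check. Counts of called carriers moved over 1.5 times as follows. A fit of only the groups compared gave 0 for mometasone at 1 h and 7 at 18 h, 1 and 6 for indacaterol at 1 and 2 h, 5 and 11 for both agents at 1 and 18 h, 1 for the interaction at 2 h and 0 for vehicle over time. Equal library totals gave 4 for indacaterol at 2 h, a pseudocount of 0.1 gave 1 for the interaction at 2 h, and each time alone gave 8 for indacaterol at 6 h. The replicate block gave 6, 12, 63 and 52 for mometasone, 7, 26 and 33 for indacaterol at 1, 2 and 6 h, 43, 75 and 66 for both agents at 2, 6 and 18 h, 3, 1 and 1 for carbachol at 1, 2 and 6 h, 2, 8 and 3 for the interaction at 1, 2 and 6 h, and 7 for vehicle over time. Where at least 1 pair's correlation was 0.1 or less, the check did not allow the block, which does not show that libraries were unpaired. The lowest was -0.34 for indacaterol at 1 h and -0.23, 0.04 and -0.04 for both agents at 1, 2 and 6 h. It was 0.02 and -0.01 for mometasone at 6 and 18 h, 0.06 for indacaterol at 6 h and 0.07 for vehicle over time. Medians of these pairs were, in the same order, 0.23, 0.21, 0.39, 0.26, 0.17, 0.03, 0.18 and 0.26. For carbachol the lowest was -0.39, -0.05, -0.27 and -0.04 at 1, 2, 6 and 18 h, and for the interaction -0.34, -0.03, -0.27 and -0.04. Leaving out each replicate gave 2 to 4, 6 to 9 and 3 to 5 for indacaterol at 1, 2 and 6 h, 3 to 6, 15 to 28 and 9 to 27 for mometasone at 2, 6 and 18 h, 18 to 30 for both agents at 18 h, and 1 to 2 for vehicle over time. The cause of these moves was not tested, beyond fewer libraries in the smaller fits. Depth is unknown, so no detection limit can be given.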
